A study of Mus musculus with 4 samples.

Results

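The microRNAs described here are those of the vessel wall: both arms of miR-126, which is typical of endothelial cells, and miR-143 and miR-145, which are typical of vascular and visceral smooth muscle. They were chosen by name, as every assay on the panel called miR-126, miR-143 or miR-145, and these are 4 of the 375 microRNA assays read in all samples: miR-126-3p and miR-126-5p, miR-143, and miR-145, each with the mouse prefix mmu. All 4 passed the detection limit in every sample. MicroRNA levels were measured by TaqMan real-time PCR in total RNA of whole mouse embryos of the C57BL/6 strain at E18.5. The 2 groups were embryos with a knockout of ER-alpha, a nuclear receptor for estrogen that the Esr1 gene encodes, and wild-type embryos, with 2 samples each. The knockout allele, the litters and the number of embryos behind a sample are not given in the sources used here. The p-values therefore cover the spread of these samples alone, part of which may be technical.

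A microRNA is cut from a hairpin in a longer transcript, and either strand of the hairpin stem can be loaded onto an Argonaute protein as the 5p or the 3p product. miR-126 lies inside Egfl7, a gene for a protein that endothelial cells secrete, and in mice and zebrafish it is needed for vessel integrity, where it raises the response to VEGF by repressing Spred1 and Pik3r2. miR-143 and miR-145 are made from 1 precursor transcript under serum response factor and myocardin, and in rodents they promote the contractile state of smooth muscle, with KLF4 and KLF5 among the targets of miR-145. A whole embryo mixes vessels with every other tissue, so fewer cells of a type and less microRNA per cell cannot be told apart.

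In RefSeq, on build GRCm38.p6, Mir126a lies at chr2:26591357-26591429 on the plus strand, within the span of Egfl7 (chr2:26581083-26592682). The 3p product is shown because it had the earliest Ct, the PCR cycle of detection, of the members. It is given first with its seed (bases 2 to 8, the main contact with target mRNAs) in capitals, then as capitals within its hairpin, where it takes bases 46 to 67 of 73.
mmu-miR-126a-3p: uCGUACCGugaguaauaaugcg
Mir126a hairpin: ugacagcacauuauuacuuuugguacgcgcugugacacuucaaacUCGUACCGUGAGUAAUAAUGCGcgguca
The RefSeq table names the gene Mir126a, with Mir126 as a synonym, and the panel's name has no letter. A gene Mir126b is listed within the span of Mir126a (chr2:26591363-26591420), and its 5p product is complementary to miR-126a-3p over 19 bases. Its seed is carried by 1 of the 1738 mature mouse microRNAs in that table, which is the 3p product itself.

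PCR gives no read counts, and the depth of a sample is described by the threshold cycle (Ct), at which the signal crosses a threshold. The more RNA, the lower the Ct, and a step of 1 cycle is read as 1 log2 unit. With detection set at a Ct of 35, ER-alpha knockout replicates 1 and 2 had 260 and 259 detected microRNAs, and wild-type replicates 1 and 2 had 290 and 254. The 229 detected in all 4 samples were tested. Wild-type replicate 1 stood apart: its shared assays came up later by a median of 1.44 to 1.84 cycles, and over these assays its Pearson correlation with each other sample was 0.939 to 0.954, against 0.978 to 0.989 among the others. After its shared constant of 0.273 cycles was taken off, 90% of the wells that amplified in it fell no more than 0.1 cycle from a whole number, against 21% to 26.5% in the others. All 4 members did so there, at 0.020 to 0.056 cycles from a whole cycle, so their differences in that sample come in steps of about 1 cycle. Tissue-restricted microRNAs of several organs were present: miR-122 of liver, miR-124 of neurons and miR-133a of striated muscle were detected in all 4 samples.

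mmu-miR-126-3p was among the earliest assays of the embryo. Its Ct was 20.2 and 20.2 in ER-alpha knockout replicates 1 and 2, and 21.2 and 20.2 in wild-type replicates 1 and 2. Of the 229 tested microRNAs it ranked 2 and 2 by Ct in knockout samples, and 1 and 1 in wild-type samples. Set against the median microRNA of each sample, its level was 8.02 and 7.66 log2 units in knockout samples and 8.0 and 7.20 in wild-type samples. The groups overlapped, and wild-type replicate 2 was the low sample.

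The partner arm mmu-miR-126-5p, which in mouse endothelium is known to repress Dlk1, came up later. Its Ct was 24.2 and 24.2 in knockout samples, and 26.2 and 24.0 in wild-type samples. Its level above the sample median was 3.96 and 3.67 log2 units in knockout samples and 3.02 and 3.36 in wild-type samples. Both knockout levels lay above both wild-type levels on this scale, whereas by raw Ct wild-type replicate 2 was the earliest of the 4 samples.

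The genes of the smooth-muscle microRNAs form a cluster. On GRCm38.p6, Mir143 lies at chr18:61649196-61649258 and Mir145a, with the synonym Mir145, at chr18:61647825-61647894. The 2 genes are 1301 bases apart, and both lie within the span of the long non-coding RNA gene Carmn. A gene Mir145b is listed elsewhere on chromosome 18, and the panel's name does not tell the 2 genes apart.

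The smooth-muscle microRNAs had a later mean Ct than the miR-126 arms. For mmu-miR-145 the Ct was 25.0 and 24.7 in knockout samples, and 26.3 and 24.1 in wild-type samples. Its level was 3.19 and 3.13 log2 units in knockout samples and 2.98 and 3.28 in wild-type samples. The 4 levels lay close together, with an SD of 0.126 that was the third lowest among the 229 tested microRNAs (rank 3, median SD 0.450). Of these levels, that of wild-type replicate 1 is known to about 1 cycle only. The SD and its rank are thus finer than that reading. Over the 3 samples other than wild-type replicate 1 the place of mmu-miR-145 depended on the assays used for centring. The SD was 0.077 (rank 9 of 229) with the same 229, and 0.274 (rank 132 of 241) with the 241 microRNAs detected in those 3 samples.

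Relative to the sample median, levels of mmu-miR-143 split by replicate number and overlapped between genotypes. Its Ct was 24.9 and 25.6 in knockout samples, and 26.2 and 25.2 in wild-type samples. Its level was 3.29 and 2.22 log2 units in knockout samples and 2.99 and 2.21 in wild-type samples, so replicate 1 was the higher sample of each genotype. That held in 8 of 13 scalings and filters, counting the unfiltered setting, in which the member levels are identical to these. Because wild-type replicate 1 reads in steps of about 1 cycle, its 2.99 against 2.21 in wild-type replicate 2 is within that step. On this scale the split is therefore readable in the knockout samples only. By raw Ct, and against the 5 small-RNA controls, wild-type replicate 1 was instead the lower wild-type sample. The small-RNA control U87 split by number in raw Ct, with 26.1 and 28.3 in knockout replicates 1 and 2, and 26.3 and 27.8 in wild-type replicates 1 and 2. The labels do not say what a replicate number marks, and the part of U87 or of the number in the miR-143 values was not tested.

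**Figure D1:**
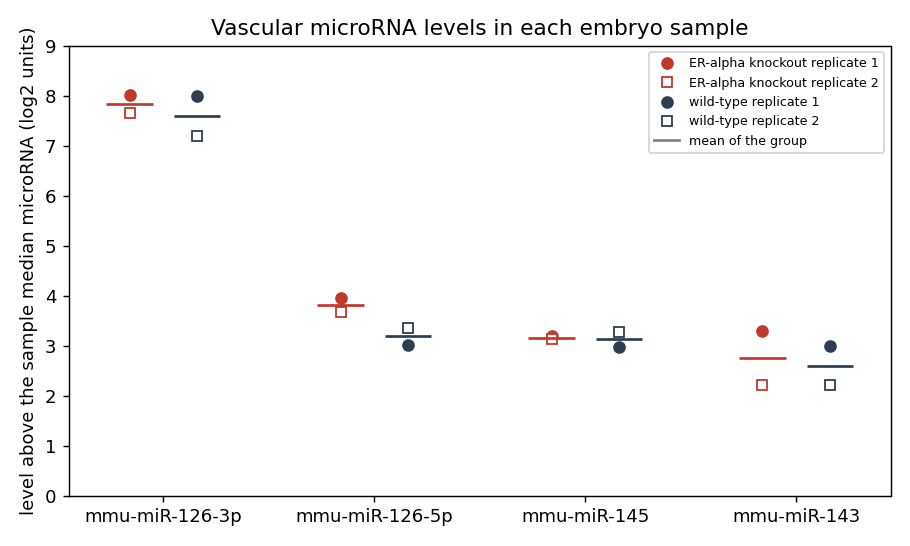
Level of each member above the median microRNA of its sample (vertical axis, log2 units) in the 2 ER-alpha knockout samples (red, left of each pair) and the 2 wild-type samples (dark blue, right); circles are replicate 1, squares replicate 2 and lines group means. mmu-miR-126-3p stands near 7.84 and 7.60 in the group means, the other members between 2.21 and 3.96 in single samples, and only mmu-miR-126-5p has both knockout points above both wild-type points.

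By mean Ct the earliest member was miR-126-3p at 20.4, before miR-126-5p at 24.7, miR-145 at 25.0 and miR-143 at 25.5. Assays of unknown efficiency are set side by side here, so the order describes the readings rather than copy numbers. The step from miR-126-3p to miR-126-5p, 4.22 ± 0.52 cycles (SD, n = 4), was larger than its spread and was seen in 4 of 4 samples. The step from miR-126-5p to miR-145 was 0.36 ± 0.36 cycles, with 0.036 and 0.080 cycles in wild-type replicates 1 and 2. Wild-type replicate 1 reads in steps of about 1 cycle, so its 0.036 has no readable direction. The other samples had the direction of the mean. That from miR-145 to miR-143, 0.47 ± 0.61 cycles, had the direction of the mean in 2 of 4 samples. It was -0.10 in knockout replicate 1 and not readable in wild-type replicate 1 (-0.011). These neighbours therefore do not differ beyond their spread.

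The comparison of genotypes asked whether vessel-wall microRNAs differ in embryos without ER-alpha. In the limma fit over the 229 microRNAs, mmu-miR-126-5p stood at 1.54-fold in knockout embryos (log2 fold change 0.62), with group levels of 3.81 ± 0.21 in knockout and 3.19 ± 0.24 in wild-type samples (SD, n = 2 each). mmu-miR-126-3p stood at 1.18-fold (0.24), with 7.84 ± 0.25 in knockout and 7.60 ± 0.57 in wild-type samples. mmu-miR-143 stood at 1.12-fold (0.16), with 2.76 ± 0.75 in knockout and 2.60 ± 0.56 in wild-type samples. mmu-miR-145 stood at 1.02-fold (0.03), with 3.16 ± 0.04 in knockout and 3.13 ± 0.21 in wild-type samples.

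None of the 4 members passed the test. The limma adjusted p was 0.939 for each miR-126 arm, 0.962 for miR-143 and 0.986 for miR-145, with unadjusted p of 0.708 for miR-126-3p, 0.329 for miR-126-5p, 0.803 for miR-143 and 0.966 for miR-145. Of all 229 microRNAs 0 passed an adjusted p of 0.05, which is 0%, and 10 (4.37%) had an unadjusted p under 0.05, none of them a member. With ordinary variances 9 did, and with the trend and robust settings 12, again with 0 passing the adjusted threshold. The standard error was 0.64 log2 units throughout, so at least 2.38-fold was needed for an unadjusted p of 0.05. The 95% interval of the log2 fold change ran from -0.63 to 1.87 for miR-126-5p and from -1.01 to 1.49 for miR-126-3p. It ran from -1.09 to 1.41 for miR-143 and from -1.22 to 1.28 for miR-145. A change of 2-fold up or down lies inside 3 of these intervals, and a 2-fold increase inside all 4.

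The fold changes also have to be read against the whole panel, whose median was 0.26 and not 0. By size of increase miR-126-5p was at rank 45 of 229, miR-126-3p at 118, miR-143 at 130 and miR-145 at 152. Thus 1 of the 4 members lay above the panel median and 3 below. Both knockout levels were above both wild-type levels for 1 of 4 members (against 33.2% of all tested microRNAs), and below them for 0 of 4 (against 6.11%). Fold changes moved with Ct over the panel: the median was 0.51 for the 62 microRNAs with a mean Ct up to 26, 0.26 for the 103 between 26 and 30, and -0.14 for the 64 above 30. Without wild-type replicate 1 these medians were 0.45, 0.26 and 0.053 with the same assays. They were 0.080, -0.064 and -0.23 with classes and centring redone on the 241 microRNAs detected in the other 3 samples. The 4 members belong to the first of these classes, and with all samples miR-126-5p was above and the other 3 below its median. Without wild-type replicate 1 miR-126-3p, miR-126-5p and miR-143 were above it and miR-145 below, in both centrings.

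**Figure D2:**
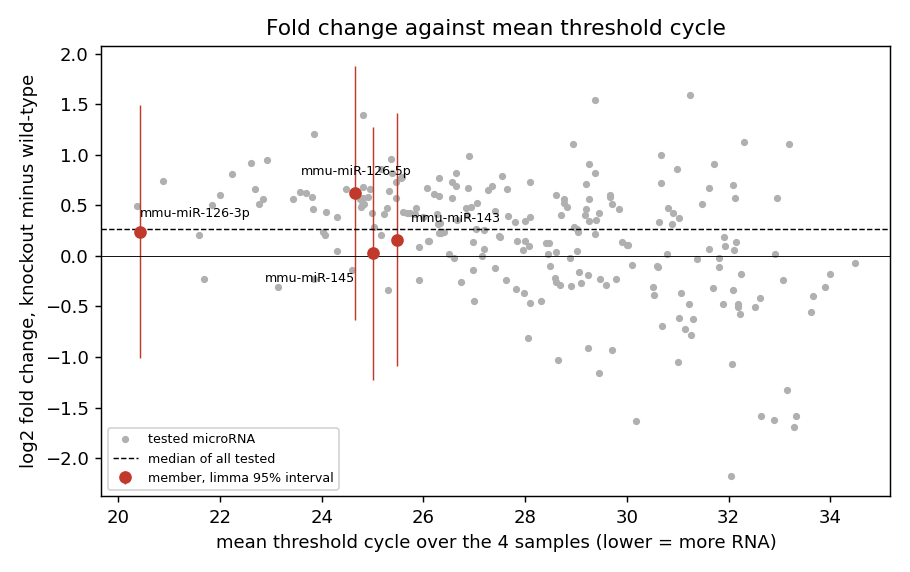
Log2 fold change, ER-alpha knockout minus wild-type (vertical axis), against mean Ct over the 4 samples (horizontal axis) for the 229 tested microRNAs (grey), with the 4 members in red and their limma 95% intervals; the dashed line is the panel median of 0.26. The member intervals all span 0, and fold changes drift downward from early to late Ct.

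Leaving out 1 library moved the members past each other. Without wild-type replicate 1, with centring on the 241 microRNAs detected in the remaining samples, the log2 fold change was 0.31 for miR-126-3p, 0.12 for miR-126-5p, 0.22 for miR-143 and -0.45 for miR-145, and the panel median was -0.03. With centring kept on the 229 assays the values were 0.64, 0.45, 0.55 and -0.12, with a panel median of 0.30. In both centrings the first 3 lay above the panel median and miR-145 below it. Without wild-type replicate 2, miR-126-5p was at 0.91, miR-145 at 0.29, miR-126-3p at -0.05 and miR-143 at -0.12, with a panel median of 0.33. Without ER-alpha knockout replicate 1, miR-143 was at -0.38, and without knockout replicate 2 at 0.61. A single wild-type or knockout sample is then assumed to vary like the group that kept 2.

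Scaling to small-RNA controls instead of the panel median changed the sizes. Against the mean of the 5 controls, miR-126-3p stood at 4.12 and 4.28 log2 units in knockout samples and 3.37 and 4.002 in wild-type samples. miR-126-5p stood at 0.07 and 0.29 in knockout samples and -1.61 and 0.16 in wild-type samples, so its groups overlapped on this scale while those of miR-126-3p did not. For miR-145 the values were -0.70 and -0.25 in knockout samples, and -1.65 and 0.08 in wild-type samples. For miR-143 they were -0.60 and -1.15 in knockout samples, and -1.64 and -0.99 in wild-type samples. Wild-type replicate 1 was the lowest sample for every member, and miR-145 was highest in wild-type replicate 2. The fold changes on this scale were 0.52 for miR-126-3p, 0.90 for miR-126-5p, 0.44 for miR-143 and 0.31 for miR-145, with a panel median of 0.54. With 1 control alone they depended on which: for miR-126-5p the value was 0.64 against snoRNA202 or snoRNA135, 0.68 against MammU6, 1.05 against U87 and 1.498 against Y1. Over 13 scalings and filters that kept all samples, both knockout levels of miR-126-5p were above both wild-type levels in 8, below them in 1 (quantile normalization) and overlapping in 4. The 8 include the main scale and the unfiltered setting, in which the member levels are identical. The share of all tested microRNAs with both knockout levels above is given for the main scale only (33.2%). The count of 8, and the separation of miR-126-3p against the controls, therefore cannot be set against the panel.

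**Figure D3:**
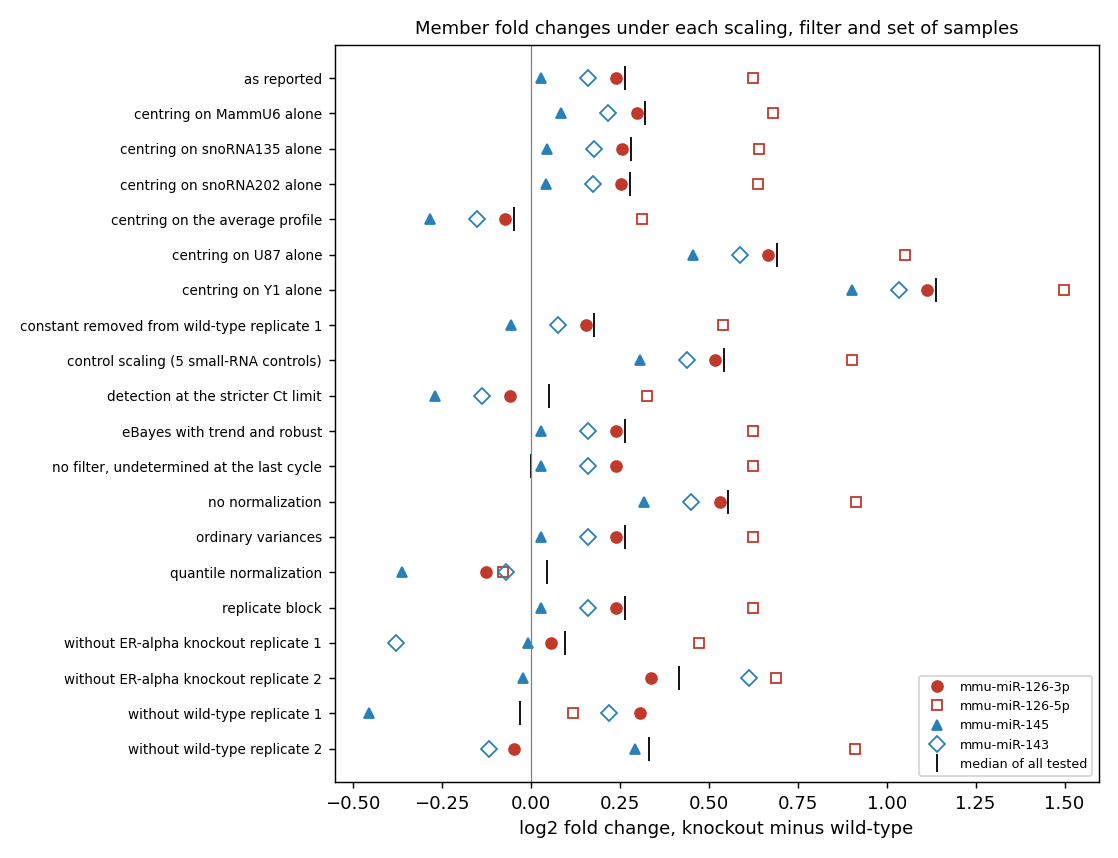
Log2 fold change, ER-alpha knockout minus wild-type (horizontal axis), of each member (symbols) under each way of scaling, filtering or leaving out a sample (vertical axis); the black tick is the median of all microRNAs tested in that setting. Centring on single controls moves the members together with the tick, while they change order under quantile normalization and when a sample is left out; miR-145 ranges from -0.45 to 0.90.

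Differences between 2 assays of the same sample need no scaling, since the amount of RNA cancels. The miR-126 hairpin was read earlier on its 3p arm: miR-126-5p stood at -4.06 and -3.995 log2 units relative to miR-126-3p in knockout samples, and at -4.98 and -3.84 in wild-type samples. If both assays had the same yield and doubled at each cycle, neither of which is known, this is a ratio of 14.3-fold to 31.6-fold in favour of the 3p arm. The upper end is wild-type replicate 1 alone, which reads in steps of about 1 cycle. The knockout samples lay between the wild-type samples. The difference between genotypes was 0.38 log2 units (exact permutation test, two-sided p = 1, the smallest p possible with 2 against 2 samples being 0.333), and it was -0.19 without wild-type replicate 1. Among the 15 hairpins with both arms tested, the SD of the miR-126 arm difference over the 4 samples (0.52) ranked 4 from the lowest, with a median of 0.75 and a range of 0.25 to 1.93.

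The partners of the miR-143/145 cluster held no fixed ratio. miR-145 stood at -0.10 and 0.90 log2 units relative to miR-143 in knockout samples, and at -0.01 and 1.08 in wild-type samples. In both genotypes the replicate numbered 1 was close to 0 and the replicate numbered 2 about 1 unit higher. Wild-type replicate 1 reads in steps of about 1 cycle, with both assays near the same whole cycle. Its value of -0.01 is therefore known to about 1 cycle only. Between genotypes the difference was -0.13 (exact permutation test, two-sided p = 0.667), and -0.09 and -0.17 between same-numbered samples. The SD of 0.61 over the 4 samples was that of a typical pair: among 164 pairs of tested microRNAs whose genes lie within 10 kb of each other it ranked 80, and the median SD was 0.61. Pairs of that set share assays and are not independent.

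Of the 6 differences between 2 members, 1 did not overlap between genotypes, against 34.4% of all 26106 pairs of tested microRNAs. It was miR-126-5p minus miR-145, singled out after its values were seen, with 0.77 and 0.54 log2 units in knockout samples and 0.04 and 0.08 in wild-type samples. The 0.04 is that of wild-type replicate 1 and is known to about 1 cycle only, so the lack of overlap is not resolved for that sample. The difference between genotypes was 0.60 (exact permutation test, two-sided p = 0.333, adjusted over the 6 pairs p = 1), and it was 0.57 without wild-type replicate 1. Any pair without overlap gets this p of 0.333, the smallest that 2 against 2 samples allow. The test therefore adds nothing to the way the pair was chosen. The mean of miR-143 and miR-145 stood at -2.75 and -2.99 log2 units relative to the mean of the miR-126 arms in knockout samples, and at -2.52 and -2.54 in wild-type samples. Knockout minus wild-type was thus -0.34 log2 units for the smooth-muscle pair against the endothelial pair, a value given without a test. This difference of means contains that of miR-126-5p and miR-145, and its share over the panel was not computed. The -2.52 of wild-type replicate 1 also rests on readings in steps of about 1 cycle.

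**Figure D4:**
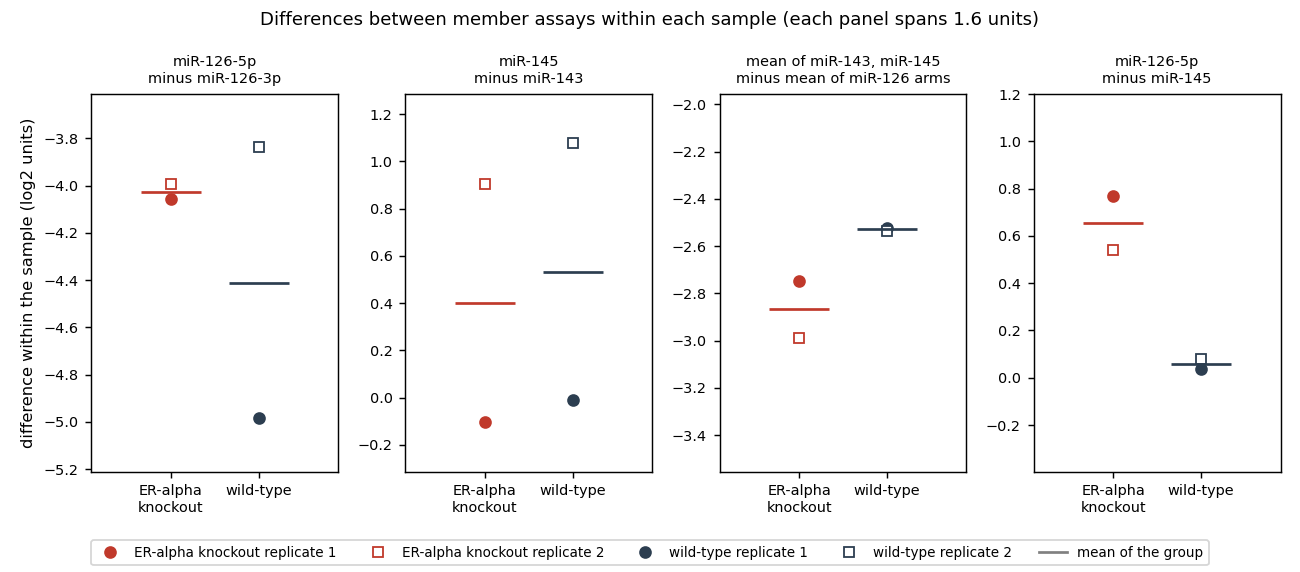
Difference in level between members within each sample (vertical axis, log2 units, each panel spanning 1.6 units with its own range) for ER-alpha knockout (red, left) and wild-type samples (dark blue, right); circles are replicate 1, squares replicate 2 and lines group means. Genotypes overlap for the miR-126 arms and for miR-145 minus miR-143, where replicates 1 and 2 separate, and do not overlap in the other panels. Wild-type replicate 1 reads in steps of about 1 cycle, which is wider than the gaps between genotypes in those panels.

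Profiles over the 4 samples were compared by the root-mean-square difference of level after each assay was centred on its own mean, a measure that rests on 4 points and on the whole-cycle readings of wild-type replicate 1. The assays most like miR-126-3p were mmu-miR-323-3p (0.04 log2 units), mmu-miR-194 (0.08) and mmu-miR-434-5p (0.08), with a median of 0.43 over the panel. Those most like miR-126-5p were mmu-miR-708 (0.02), mmu-miR-411 (0.03) and mmu-miR-20b (0.04). For miR-143 they were mmu-miR-320 (0.04), mmu-miR-672 (0.10) and mmu-miR-331-3p (0.12), and for miR-145 mmu-let-7b (0.07), mmu-let-7d (0.10) and mmu-let-7c (0.13). The 2 arms of miR-126 differed by 0.45 and the cluster partners miR-143 and miR-145 by 0.53, while miR-126-3p and miR-143 differed by 0.25. Products of 1 hairpin or 1 cluster were therefore not the closest profiles here.

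Other microRNAs of the vessel wall gave no call either. Of 18 assays for endothelial and angiogenesis regulators 17 were tested and 0 passed; 6 lay above and 11 below the panel median, and their median log2 fold change was 0.07 (panel 0.26). Those with the largest fold changes were mmu-miR-296-5p (-0.93), which promotes angiogenesis in human endothelium, mmu-miR-222 (0.77), which in human endothelium represses the receptor c-Kit, and mmu-miR-92a (0.67), an inhibitor of vessel sprouting. The assay not tested, mmu-miR-23a, read 31.3 in wild-type replicate 1 and 36.3 in knockout replicate 2, and did not amplify in the other 2 samples. Of 13 assays for smooth muscle phenotype regulators 12 were tested and 0 passed, with 8 above and 4 below the panel median and a median of 0.47. The largest were mmu-miR-222 (0.77), which in rat promotes smooth muscle proliferation, mmu-miR-25 (0.71) and mmu-miR-146a (0.58). mmu-miR-490 was not tested, since it amplified in 1 sample of each genotype. miR-221 and miR-222 stand in both lists, and miR-1 and miR-133 are also striated-muscle microRNAs. miR-1 counts with a mouse and a rat assay in the smooth-muscle list, both above the panel median.

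Without wild-type replicate 1 the medians of the endothelial and smooth-muscle lists were -0.14 and -0.056 (panel -0.03) with centring on 241 assays, and 0.19 and 0.28 (panel 0.30) with centring kept on 229. On the 241 assays mmu-miR-222 was then at -0.0043, mmu-miR-92a at -0.58, mmu-miR-25 at -0.19 and mmu-miR-146a at 0.18, whereas mmu-miR-296-5p was at -1.15. MicroRNAs of the blood that vessels carry had a median of 0.63, with 6 of 7 above the panel median, but without wild-type replicate 1 only 2 of 7 lay above it, with a median of -0.19 on 241 assays and 0.14 on 229. Their summed level was 5.48 and 5.16 log2 units in knockout samples, and 4.37 and 5.02 in wild-type samples, and all 7 assays were detected in every sample. Those of fibroblasts and mesenchyme had a median of 0.42 and 3 of 4 above the panel median, and 0.11 and 3 of 4 without wild-type replicate 1 on 241 assays. They had a summed level of 6.62 and 5.99 in knockout samples and 5.70 and 5.87 in wild-type samples. The 1 fibroblast and mesenchyme assay below the panel median, at -1.58, is the other arm of a microRNA whose assay lay above it, at 0.58. Without wild-type replicate 1, on 241 assays, these 2 arms were at -0.23 and 0.16. Those of striated muscle had a median of 0.42 and 3 of 5 above it, and 0.17 and 4 of 5 without wild-type replicate 1 on 241 assays. They had a summed level of 8.48 and 8.05 in knockout samples and 8.35 and 7.43 in wild-type samples, with miR-208 and miR-208b not tested. The 5 striated-muscle assays include a mouse and a rat assay of miR-1, and both are among the 3 above the panel median. Both also count in the striated-muscle sum. Summed levels were added on the linear scale, so the earliest assay of each list weighs most in them. The part of these cell types in the values of miR-126, miR-143 and miR-145 was not tested.

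**Figure D5:**
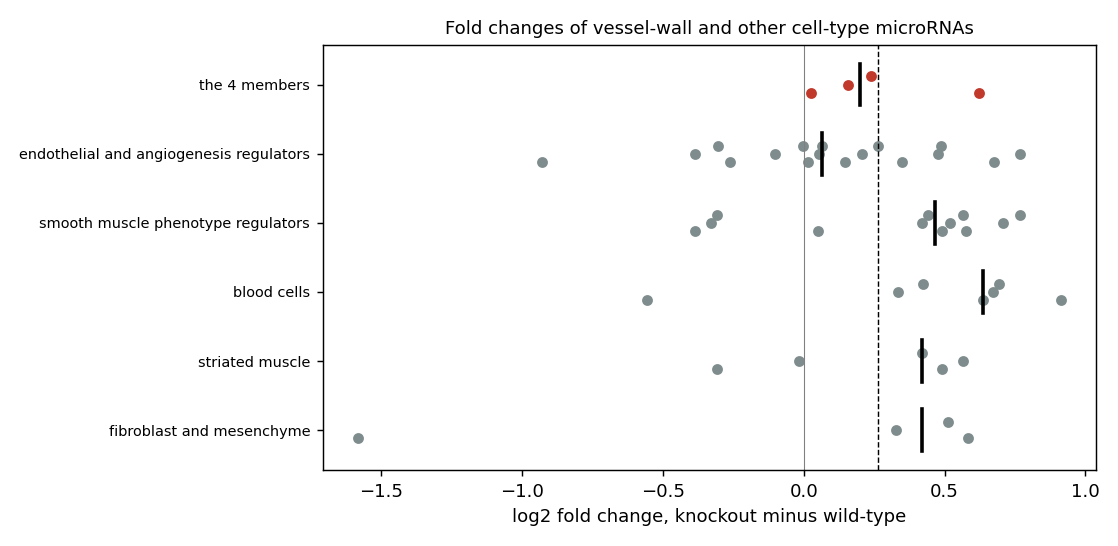
Log2 fold change, ER-alpha knockout minus wild-type (horizontal axis), of each tested microRNA of the named lists (vertical axis); points are assays, spread vertically for legibility, thick bars are list medians and the dashed line is the panel median of 0.26. The 4 members have a median of 0.20, and the blood-cell list has one of 0.63, which was -0.19 or 0.14 without wild-type replicate 1, depending on the assays used for centring.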

How the data were processed

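Per the labels' protocols, total RNA was isolated with TRIzol and TaqMan real-time PCR was run on an Applied Biosystems 7900HT for 40 cycles. The deposited score is the Ct, per the file headers, with 1 well per microRNA and 4 wells, averaged here, for U6. The threshold, any normalization and the knockout allele are not given in the sources used here. Undetermined wells were not detected; in wild-type replicate 1, 39 wells above the last cycle were treated likewise. The level is minus the Ct centred on the sample median of the microRNAs detected (Ct of 35 or lower) in all samples, which takes a cycle as a doubling. All 229 were fitted with limma 3.58.1 in R 4.3.3 (lmFit, eBayes, group only, two-sided, Benjamini-Hochberg); all assays shared 1 variance. Differences between members used exact permutation tests. The fit was tested on simulated data. Sequences and positions are from RefSeq tables of GRCm38.p6, read with Python 3.11.15; plots used matplotlib 3.10.9.

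The members, lists and tests were chosen with earlier results of these data known. Named microRNAs are the members, the controls, the 3 assays nearest to each member in profile, and up to 3 of each vessel-wall list with the largest fold change. An assay belongs to a list by its name without prefix, arm and part number. Alternatives were other scalings, a Ct limit of 32, no filter, samples left out, a replicate block and other variance settings; leaving out samples with the full assay set was added after seeing the data. Same-numbered samples deviated together over assays (r = 0.37), but with 2 pairs they were not treated as pairs.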

Additional observations from a re-analysis of the deposited data

How the results depend on the processing

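Only 2 samples per group and 1 well per microRNA limit every value, and the latest member Ct, 26.3, was 8.75 cycles before the detection limit, which still acts on the values by setting the assays used for centring. Over 23 alternatives the limma adjusted p of the members ranged from 0.155 (miR-126-5p, without wild-type replicate 2) to 1, and no member passed. The log2 fold change of miR-126-3p was below 0 in 5 alternatives, that of miR-126-5p in 1, that of miR-143 in 7 and that of miR-145 in 9. The 23 include the replicate block, the other variance settings and the unfiltered setting, which leave the member fold changes unchanged and cannot turn their sign. With centring on the average profile miR-126-3p, miR-143 and miR-145 were at -0.073, -0.15 and -0.28 (panel -0.05), and with the Ct limit at 32 at -0.059, -0.14 and -0.27 (panel 0.05). With quantile normalization miR-126-3p, miR-126-5p, miR-143 and miR-145 were at -0.13, -0.079, -0.071 and -0.36, and with the constant removed from wild-type replicate 1 miR-145 was at -0.057. Leaving out 1 sample gave -0.16 to 0.64 for miR-126-3p, 0.12 to 0.91 for miR-126-5p, -0.38 to 0.69 for miR-143 and -0.45 to 0.29 for miR-145. It gave -0.19 to 0.96 for the miR-126 arm difference (below 0 without wild-type replicate 1), -0.67 to 0.41 for miR-145 minus miR-143 (above 0 without knockout replicate 1 or wild-type replicate 2), and -0.46 to -0.22 for the smooth-muscle pair against the miR-126 arms.

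The median of the endothelial list was -0.24 with average-profile centring, 0.35 with control scaling, -0.15 with the Ct limit at 32 and 0.36 without normalization. For the smooth-muscle list it was 0.15, 0.74, 0.17 and 0.76, and for the panel -0.05, 0.54, 0.05 and 0.55. Average-profile centring, control scaling and no normalization shift all assays of a sample alike, so list and panel medians moved together. With quantile normalization the smooth-muscle list was at 0.082 (panel 0.05). With a sample left out the endothelial list ran from -0.14 (panel -0.03) to 0.22 (panel 0.52). The smooth-muscle list then ran from -0.056 (panel -0.03) to 0.73 (panel 0.33). The replicate block called 1 microRNA of 229, mmu-miR-324-3p (log2 fold change -2.18, limma adjusted p = 0.00578), not a member and named after its values were seen; members had adjusted p of 0.732 to 0.981, and the paired exact test of miR-145 minus miR-143 gave p = 0.5, the smallest that 2 pairs allow. With a sample left out the count was 0 to 13; the 13, none a member, arose without wild-type replicate 2 when centring kept the full assay set, and the spread then came from 1 genotype. Apart from the shifts shared by all assays of a sample, the causes of these moves were not tested.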

Other observations

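Raw Ct values of mmu-miR-126-3p were almost identical in 3 samples. Over ER-alpha knockout replicates 1 and 2 and wild-type replicate 2 they spanned 0.0124 cycles, rank 1 (the narrowest) among the 241 microRNAs detected in these samples, whose median span was 0.58 cycles. The 4 wells of U6 within 1 sample spanned 0.136 and 0.402 cycles in the knockout samples, and 1.14 and 0.190 in the wild-type samples. The span of miR-126-3p was thus narrower than that of repeated wells, and the median Ct of the tested microRNAs in the same samples was 28.2 and 27.8 in the knockout samples and 27.4 in wild-type replicate 2. The assay was singled out after its values were seen. In wild-type replicate 1 the Ct was 21.2. miR-126-5p spanned 0.230 cycles over the same 3 samples (rank 35), miR-143 0.700 (rank 148) and miR-145 0.919 (rank 177). After centring on the 241 microRNAs, the SD over these samples was 0.190 for miR-126-3p (rank 89 of 241), 0.078 for miR-126-5p (rank 22), 0.442 for miR-143 (rank 177) and 0.274 for miR-145 (rank 132), so the narrow span of miR-126-3p was one of raw Ct.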
